A study of Mus musculus with 26 samples.

Results

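Kdm3aHA mRNA was set against mCherry mRNA in mouse early 2-cell embryos without maternal KDM3A and KDM3B, with 2 libraries of Kdm3aHA-injected embryos and 2 of mCherry-injected embryos. These are 4 of the 26 libraries of the series, all RNA-seq of C57BL/6J oocytes or preimplantation embryos, each made from a pool of 12 to 20. The members were the genes that reached a TPM of 1 in 2 or more of the 8 injected early 2-cell libraries, which 10960 of 24412 genes in the table met. TPM is a share of a library's transcripts, corrected for transcript length and set to the same total in each library, so values can be compared between genes, but the sequencing depth behind a library is unknown.

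The oocytes came from females that were homozygous for floxed alleles of Kdm3a and Kdm3b (Kdm3a f/f, Kdm3b f/f) and carried the Cre transgene Zp3-Cre, whose promoter is active in growing oocytes. Wild-type sperm fertilised them in vitro, and the embryos are called mDKO. Their paternal copies of both genes came with the wild-type sperm, and deletion in these libraries can be read only from the 2 transcripts. Beside the mDKO embryos injected with Kdm3aHA or mCherry, the same table holds mDKO embryos injected with Kdm3aWT and control embryos injected with mCherry, with 2 libraries each. The control females' alleles are labelled only as control. The sources used here do not say what HA denotes. The name Kdm3aHA is therefore kept as labelled, and neither its protein product nor its activity is described. Uninjected control and mDKO early 2-cell embryos, control MII oocytes (eggs arrested before fertilisation) and injected wild-type 4-cell embryos, again 2 libraries a group, are used only where named. These sources also leave out the animals' age, the injected dose and whether replicate pools stem from separate matings, so p-values measure only the spread between these libraries, which may be technical.

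KDM3A and KDM3B remove mono- and dimethyl marks from lysine 9 of histone H3, marks that are associated with silent chromatin. In the mouse, transcription from the new genome starts weakly in the zygote and early 2-cell embryo (minor activation), before the larger wave of the late 2-cell stage. Genes of the Zscan4, Tcstv and Usp17l families and many genes driven by a retroviral promoter are known for their burst of expression at that time, and the transcription factor DUX, encoded by a repeated array, can switch many of them on in cultured cells.

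The promoters of Zscan4c and Zscan4d are shown because these clustered genes, which encode zinc finger proteins, are among those whose levels differed between the 2 Kdm3a constructs. The sequences are from RefSeq, build GRCm38.p6, and run from 250 bases before to 50 after the gene's start. Zscan4c lies at chr7:11005745-11010547 and its promoter at chr7:11005495-11005794 on the plus strand, and Zscan4d lies at chr7:11161643-11166148 and its promoter at chr7:11166099-11166398 on the minus strand. Capitals mark the only match, on the opposite strand, to the core of the DUX motif, TGATT and ATCA with any 2 bases between them, which was searched on both strands.
Zscan4c: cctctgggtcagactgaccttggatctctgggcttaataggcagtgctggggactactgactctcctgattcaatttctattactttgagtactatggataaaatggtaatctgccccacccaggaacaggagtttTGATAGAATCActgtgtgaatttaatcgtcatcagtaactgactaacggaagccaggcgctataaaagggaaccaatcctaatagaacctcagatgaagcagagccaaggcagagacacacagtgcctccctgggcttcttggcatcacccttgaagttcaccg
Zscan4d: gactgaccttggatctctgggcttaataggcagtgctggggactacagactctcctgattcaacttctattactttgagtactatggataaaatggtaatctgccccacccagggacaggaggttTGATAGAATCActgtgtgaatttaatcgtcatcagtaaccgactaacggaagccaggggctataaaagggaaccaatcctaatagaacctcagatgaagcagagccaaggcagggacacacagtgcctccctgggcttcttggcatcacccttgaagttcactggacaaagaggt
The windows matched at 281 of 289 aligned bases (97.23%), so reads may be split between these copies and the values of single Zscan4 genes are uncertain. The motif was present in 4 of the 30 early 2-cell genes with an entry in the promoter table (Zscan4b, Zscan4c, Zscan4d and Zscan4f) and in 68 of 32851 promoters of the same length (0.207%). A match describes letters in this window, not a bound site.

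Kdm3a transcript, at chr6:71588970-71632990 in the RefSeq annotation, checked the injection. It was at 4043 and 3907 TPM in the Kdm3aHA libraries, at 4122 and 2315 in the Kdm3aWT libraries, at 0.262 and 0.411 in the mDKO mCherry libraries and at 2.12 and 1.81 in the control mCherry libraries. The Kdm3aHA libraries were far above both mCherry groups and within 1 log2 unit of the Kdm3aWT libraries, with a log2 fold change of 11.54 ± 0.23 against mDKO mCherry (adjusted p = 8.3e-08) and of 0.36 ± 0.23 against Kdm3aWT (adjusted p = 0.37, 95% interval -0.15 to 0.88). Log2 fold changes are given with their standard error, on the scale of log2(TPM + 1), with n = 2 libraries per group, and come from limma with p-values adjusted over all genes tested by the Benjamini-Hochberg method. A gene was called at an adjusted p under 0.05. Kdm3b was at 0.192 and 0.154 TPM with Kdm3aHA, 0.254 and 0.128 with mCherry in mDKO and 0.710 and 0.722 in the control, too low to be tested. Jmjd1c, a relative of both, was at 1.96 and 1.97 TPM with Kdm3aHA and 3.01 and 2.88 with mCherry (log2 fold change -0.41 ± 0.16, adjusted p = 0.15). Kdm3a was the only one of 8 tested H3K9 demethylase genes that was called.

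Of 53 tested early 2-cell genes, 3 (5.66%) were higher and 6 (11.3%) lower with Kdm3aHA than with mCherry, beside 1.54% and 9.29% of all genes. The other 44 were not called, and the median log2 fold change over the 53 was -0.05. By limma 22 of the 53 had an unadjusted p under 0.05, where 26.3% of all genes did. Against Kdm3aWT, 18 (34.0%) were lower with Kdm3aHA, beside 1.32% of all genes. Zscan4a was at 9.95 and 14.6 TPM with Kdm3aHA, 10.7 and 13.8 with mCherry, 40.7 and 45.9 with Kdm3aWT, and 169 and 167 in the mCherry-injected control. The Kdm3aHA values lay on either side of the mCherry values and below both Kdm3aWT values. The log2 fold change of Zscan4a was -0.01 ± 0.19 for Kdm3aHA against mCherry (adjusted p = 0.99, 95% interval -0.43 to 0.42), 1.75 ± 0.19 for Kdm3aWT against mCherry (adjusted p = 0.0011) and -1.76 ± 0.19 for Kdm3aHA against Kdm3aWT (adjusted p = 0.0093). Usp17lb, of a family of deubiquitinase genes, was at 13.2 and 14.9 TPM with Kdm3aHA, 17.6 and 16.3 with mCherry, 47.4 and 36.9 with Kdm3aWT and 94.2 and 90.3 in the control. It fell against Kdm3aWT (-1.51 ± 0.14, adjusted p = 0.0093) and was not called against mCherry (-0.25 ± 0.14, adjusted p = 0.30, 95% interval -0.58 to 0.07).

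Zscan4c had the lowest values of all 8 libraries with Kdm3aHA, at 24.4 and 39.1 TPM, against 44.6 and 51.2 with mCherry, 90.4 and 110 with Kdm3aWT and 262 and 312 in the control. The 4 groups did not overlap. Its log2 fold change was -1.66 ± 0.21 against Kdm3aWT (adjusted p = 0.015) and -0.61 ± 0.21 against mCherry, which was not called (adjusted p = 0.10). Zscan4f stood in the same order, at 37.9 and 40.7 TPM with Kdm3aHA, 49.4 and 57.4 with mCherry, 93.0 and 137 with Kdm3aWT and 411 and 515 in the control (-1.50 ± 0.19 against Kdm3aWT, adjusted p = 0.015). Zscan4d was at 38.2 and 44.3 TPM with Kdm3aHA, just above the 33.9 and 36.9 with mCherry (0.21 ± 0.20, adjusted p = 0.55) and below the 74.8 and 94.8 with Kdm3aWT (-1.02 ± 0.20, adjusted p = 0.037). Zfp352, a zinc finger gene of the 2-cell stage, was at 26.6 and 27.4 TPM with Kdm3aHA, 25.5 and 22.6 with mCherry and 45.2 and 46.0 with Kdm3aWT (-0.74 ± 0.11 against Kdm3aWT, adjusted p = 0.019). The calls against Kdm3aWT held for Zscan4a, Zscan4c and Usp17lb whichever 1 of the 4 libraries was left out. They were lost when the spread was modelled without a trend with the level. Zscan4a, Usp17lb and Zfp352 were named after their values were seen. The call of Zscan4d against Kdm3aWT was lost in each of the 4 fits without 1 library, with log2 fold changes between -1.18 and -0.85. The calls of Zscan4f and Zfp352 were lost in more than 1 of those fits.

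**Figure D1:**
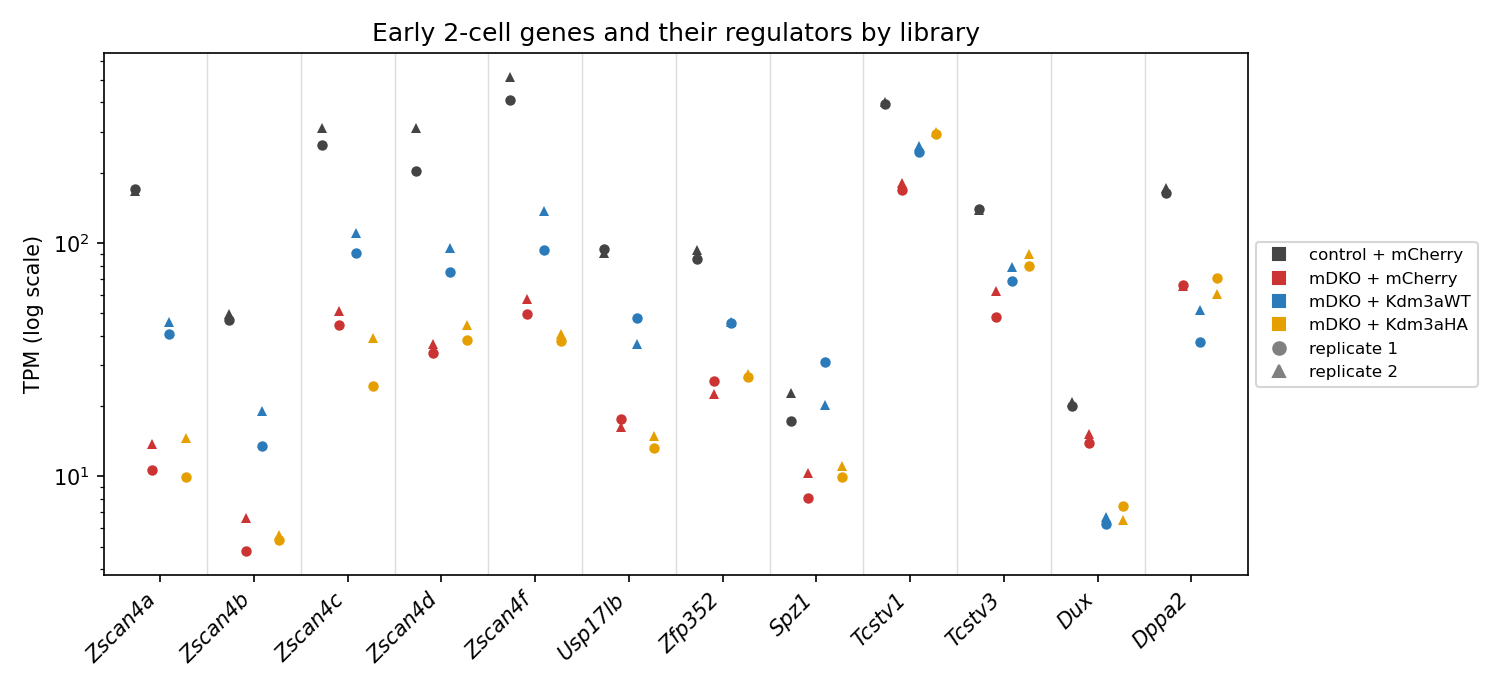
TPM on a log axis of 12 genes of the early 2-cell list or known to regulate it, by library. Each point is 1 library, coloured by injected group. For Zscan4a, Zscan4b, Zscan4d, Usp17lb and Zfp352 the Kdm3aHA points lie near the mDKO mCherry points, below the Kdm3aWT points, while for Tcstv1 they lie at 292 and 298 TPM, above both.

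Of the 65 genes of the early 2-cell list, 57 were in the table and 53 passed the TPM filter. Against mCherry, Kdm3aHA raised 3 and lowered 6 of the 53, with a median log2 fold change of -0.05, where 10.8% of all genes were called (1.54% higher and 9.29% lower) and the median of all genes was -0.08. With each library divided by a size factor the list had 4 higher and 3 lower and a median of 0.02. Kdm3aWT raised 23 and lowered 3, with a median of 0.53, where 0.949% of all genes were called higher and 10.8% lower and the median was -0.19. With size factors 331 genes were higher and 557 lower for Kdm3aWT, in place of 104 and 1184, the median of all genes was 0.00 and 27 of the list were higher and 2 lower. These comparisons share the mCherry libraries. In the direct comparison of the constructs, 18 of the 53 were lower and 1 was higher with Kdm3aHA, with a median of -0.65, where 1.32% of all genes were called lower and 1.97% higher and the median was 0.10. The 1 gene higher with Kdm3aHA was Arg2 (arginase 2), at 337 and 370 TPM against 236 and 261 with Kdm3aWT (0.51 ± 0.09, adjusted p = 0.027), named after its value was seen. Against the mCherry-injected control, 47 of the 53 were lower with Kdm3aHA and 0 higher, with a median of -1.73, where 37.1% of all genes were called (20.1% lower and 17.0% higher). The mDKO mCherry libraries had 48 lower and 1 higher against that control, with a median of -1.81, where 20.0% of all genes were lower and 26.9% higher. In the uninjected embryos, whose libraries are in none of these fits, 44 of 51 tested were lower in mDKO and 1 was higher, where 8.99% of all genes were called lower and 5.38% higher.

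The count of 18 rests on the libraries and on how the spread was modelled. It was 5 and 3 without Kdm3aHA replicate 1 and 2, 9 and 18 without Kdm3aWT replicate 1 and 2, 3 in a fit on the 4 libraries alone and 0 without a trend of the spread with the level, while the list's median stayed between -0.77 and -0.50. The 23 genes raised by Kdm3aWT became 3 and 12 without mDKO mCherry replicate 1 and 2, and 15 and 16 without Kdm3aWT replicate 1 and 2.

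**Figure D2:**
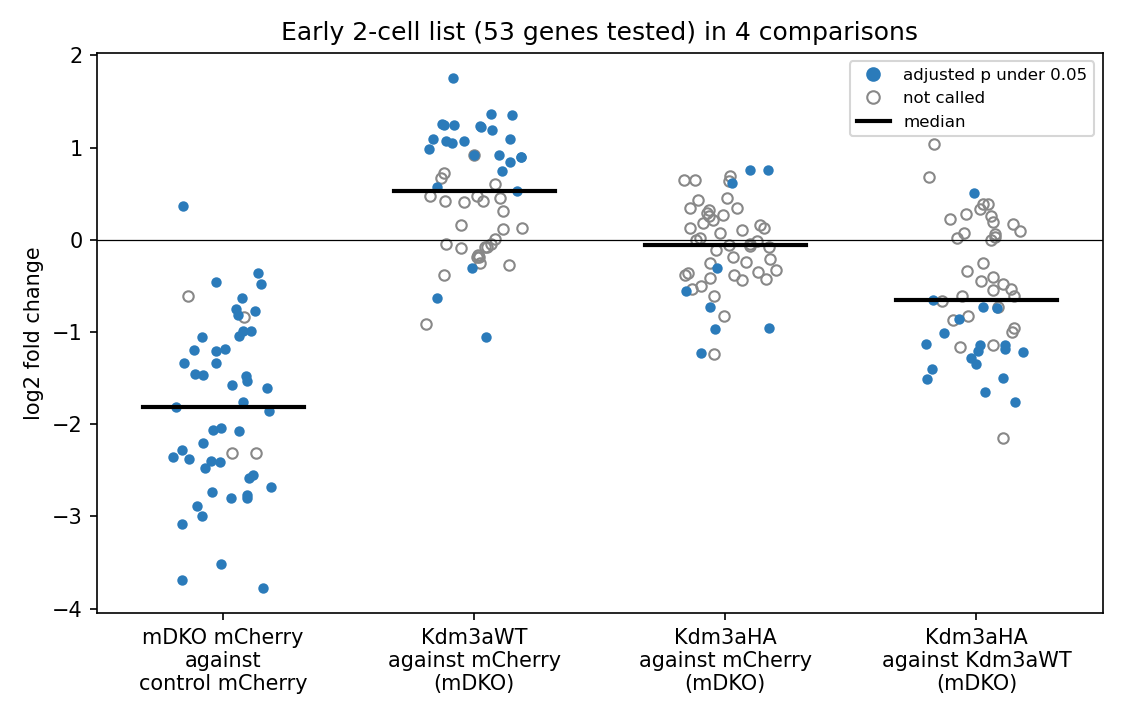
Log2 fold change of the 53 tested genes of the early 2-cell list in 4 comparisons. Filled points were called at an adjusted p under 0.05, open points were not, and bars are medians, at -1.81 for mDKO against control, 0.53 for Kdm3aWT, -0.05 for Kdm3aHA and -0.65 between the constructs. The first 3 comparisons share the mDKO mCherry libraries.

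The 3 genes of the list that rose with Kdm3aHA against mCherry were Tcstv1, Tcstv3 and Gm20767. Tcstv1, a 2-cell gene at chr13:119893387-119894785, was at 292 and 298 TPM with Kdm3aHA, 168 and 181 with mCherry, 244 and 260 with Kdm3aWT and 394 and 401 in the control. The 4 groups did not overlap, and the Kdm3aHA libraries stood between Kdm3aWT and the control (0.75 ± 0.08 against mCherry, adjusted p = 0.00091). Against Kdm3aWT the difference was 0.22 ± 0.08 and was not called (adjusted p = 0.15). Tcstv3 was at 79.9 and 89.3 TPM with Kdm3aHA, 48.0 and 62.0 with mCherry and 68.8 and 78.7 with Kdm3aWT (0.62 ± 0.14 against mCherry, adjusted p = 0.023). Gm20767 was at 22.0 and 19.4 TPM with Kdm3aHA, 11.02 and 12.6 with mCherry and 28.0 and 24.8 with Kdm3aWT (0.76 ± 0.15 against mCherry, adjusted p = 0.014).

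Among the 6 that fell, Gm2016 was at 9.67 and 7.80 TPM with Kdm3aHA, below the 21.1 and 22.2 with mCherry, the 19.4 and 28.7 with Kdm3aWT and the 161 and 200 of the control (-1.22 ± 0.20 against mCherry, adjusted p = 0.0056). Dux was lower with either Kdm3a mRNA than with mCherry. It was at 7.46 and 6.51 TPM with Kdm3aHA, 6.25 and 6.69 with Kdm3aWT, 13.9 and 15.2 with mCherry and 20.0 and 20.8 in the control. Its log2 fold change against mCherry was -0.96 ± 0.14 for Kdm3aHA (adjusted p = 0.0032) and -1.06 ± 0.14 for Kdm3aWT (adjusted p = 0.0025), and the difference between the constructs was 0.09 ± 0.14 (adjusted p = 0.72). BC061212 was at 7.81 and 6.29 TPM with Kdm3aHA against 16.3 and 12.9 with mCherry (-0.95 ± 0.16, adjusted p = 0.0063), and Gm5662 at 43.4 and 32.6 against 64.3 and 62.1 (-0.73 ± 0.16, adjusted p = 0.024). The other two, Gm8994 and C87977, fell by 0.56 and 0.31. Of the 3 that rose and the first 4 that fell, only the call of Tcstv1 held in all 4 fits that leave out 1 library. Those fits gave 1 to 3 early 2-cell genes higher and 1 to 6 lower, a median of the list between -0.20 and 0.03, with 1 higher without Kdm3aHA replicate 1 and without mDKO mCherry replicate 1, and 1 lower without either mCherry replicate. Many listed genes belong to families of near-identical copies, and Gm20765 and Gm21312 had identical values in every injected library.

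Dppa2 and Dppa4, which encode chromatin factors upstream of Dux, were not called between Kdm3aHA and mCherry. Dppa2 was at 71.1 and 60.1 TPM with Kdm3aHA, 66.1 and 65.3 with mCherry, 37.8 and 51.4 with Kdm3aWT and 164 and 172 in the control (-0.01 ± 0.15 against mCherry, adjusted p = 0.98, 95% interval -0.35 to 0.34). Dppa4 was at 2.36 and 1.96 TPM with Kdm3aHA and 4.85 and 3.48 with mCherry (-0.70 ± 0.25, adjusted p = 0.11). Of 7 tested genes of the Obox homeobox family, 0 were called by limma for Kdm3aHA against mCherry, with 1 at an unadjusted p under 0.05. Obox3 was at 10.03 and 7.55 TPM with Kdm3aHA, 6.66 and 5.87 with mCherry and 25.0 and 23.4 in the control (0.42 ± 0.17, adjusted p = 0.16), and Obox6 at 2.91 and 3.52 against 3.77 and 2.16 with mCherry (0.11 ± 0.25, adjusted p = 0.83).

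Across all genes, Kdm3aHA against mCherry gave 1187 calls, 169 higher and 1018 lower, of which 31 (0.283% of the genes tested) and 605 (5.52%) differed at least 2-fold on the log2(TPM + 1) scale. With each library divided by a size factor, the split was 348 higher and 746 lower, and the median log2 fold change of all genes moved from -0.08 to 0.01. The filter and the mDKO mCherry libraries bear on the number of calls. Of the genes tested, 494 passed the TPM filter only with the mDKO mCherry libraries counted, which favours higher values there, and 233 of these were lower and 0 higher. Of the rest, 785 were lower and 169 higher. There were 216 calls without replicate 1 and 279 without replicate 2 of that group, against 632 and 882 without Kdm3aHA replicate 1 and 2. Of the 82 called genes named by rule and tested in all 4 such fits, 33 were called in the same direction in each.

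**Figure D3:**
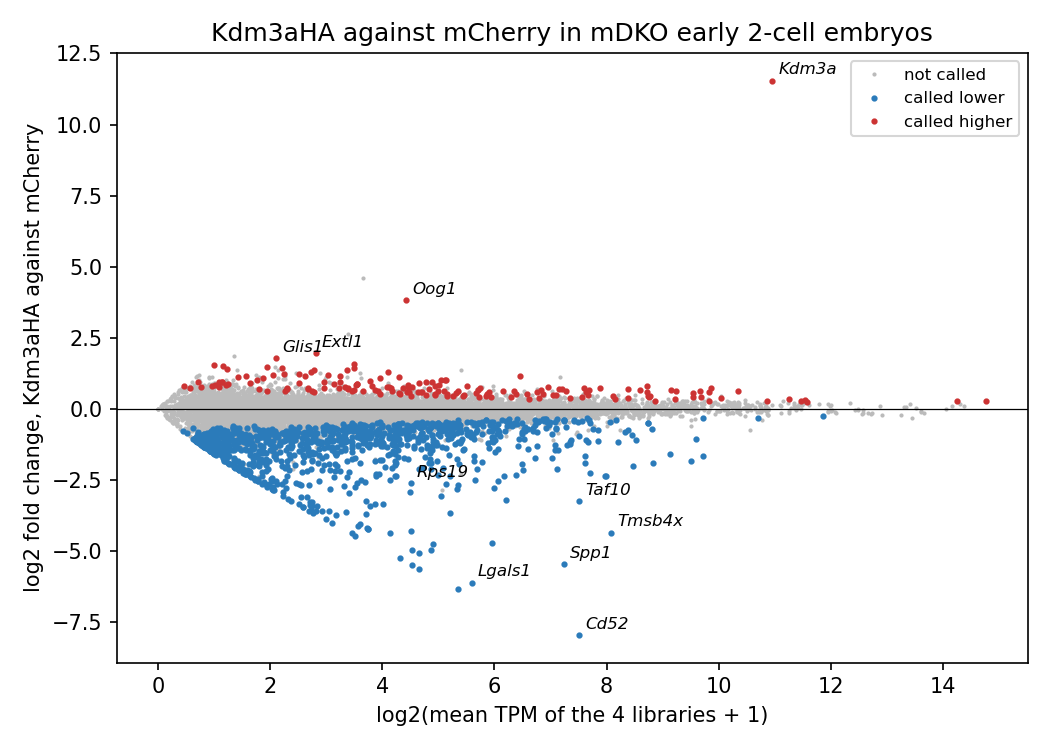
Log2 fold change of Kdm3aHA against mCherry (vertical) and log2 of the mean TPM of the 4 libraries plus 1 (horizontal) for the 10960 genes tested. Grey points were not called, blue points were lower (1018) and red points higher (169), and Cd52, the lowest named gene, is at -7.94.

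The genes that fell furthest were transcripts at high levels in both mDKO mCherry libraries and near 0 in most others. Cd52, which encodes a surface protein of lymphocytes, was at 432 and 288 TPM with mCherry in mDKO, 1.07 and 0 with Kdm3aHA, 6.13 and 1.39 with Kdm3aWT and 0 in both control libraries (-7.94 ± 0.50, adjusted p = 6.9e-05). Spp1 (osteopontin, a secreted glycoprotein) was at 5.18 and 6.36 TPM with Kdm3aHA, 320 and 268 with mCherry in mDKO, 16.4 and 9.82 with Kdm3aWT and 9.68 and 8.21 in the control (-5.44 ± 0.22, adjusted p = 1.4e-05). Lgals1 (galectin 1) was at 0.513 and 0.260 TPM with Kdm3aHA, below the 96.0 and 92.4 with mCherry (-6.11 ± 0.31, adjusted p = 5.0e-05). In each of these 3 genes the mDKO mCherry libraries stood apart from all 6 others. Hsd3b1, a steroid-making enzyme, was at 80.0 and 79.5 TPM with mCherry in mDKO and was listed at 0 in both Kdm3aHA and both control libraries (adjusted p = 5.6e-05). Clu (clusterin), Ifitm2 and S100a6 were likewise listed at 0 in both Kdm3aHA libraries, with 43.1 and 32.1, 49.9 and 46.7, and 51.8 and 36.3 TPM in the mCherry libraries. Cd63, S100a10, Chchd10, Wbp5 and Nupr1 fell by 5.08, 4.96, 4.96, 4.75 and 4.70. These 12 calls held in all 4 fits that leave out 1 library.

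Markers of other cells moved with these genes. The 17 blood cell markers summed to 58.7 and 38.3 TPM in the mDKO mCherry libraries, 2.999 and 0.474 with Kdm3aHA, 1.04 and 2.06 with Kdm3aWT and 10.6 and 5.02 in the control. Of 5 tested, 3 fell with Kdm3aHA (Lyz2, Tyrobp and Fcer1g, genes of myeloid cells) and 0 rose, where 9.29% of all genes were lower. Those 3 passed the TPM filter only with the mDKO mCherry libraries counted, where they were high, so the filter favoured that direction. Hbb-bs, Hbb-bt and S100a9 were listed at 0 in the mDKO mCherry libraries. The 20 cumulus and granulosa cell markers summed to 439 and 429 TPM in the mDKO mCherry libraries, 236 and 250 with Kdm3aHA, 260 and 250 with Kdm3aWT and 85.6 and 77.9 in the control. Of 9 tested, 6 fell, 3 of which passed the filter only in that way, among them Hsd3b1, Inha, Inhba (inhibin subunits) and Tnfaip6, and Lhcgr, Amh and Foxl2 were listed at 0 in the mDKO mCherry libraries. Serpine2, which also fell (-0.45 ± 0.11, adjusted p = 0.029), made up most of that sum, at 312 and 307 TPM with mCherry and 218 and 234 with Kdm3aHA. The 18 sperm markers summed to between 71.9 and 127 TPM over the 8 libraries, with Prm2 higher and Prm1 lower of 6 tested. Prm1 also passed the TPM filter only with the mDKO mCherry libraries counted, so the filter favoured its direction. The 8 markers that define oocytes and embryos were at 1 TPM or more in every injected early 2-cell library, and 0 were called by limma against mCherry, with 3 at an unadjusted p under 0.05. Less RNA per cell and fewer cells of a type cannot be told apart in pools. The part of such cells in the genes that fell was not tested. Among genes that also reached 1 TPM in both control mCherry libraries, a filter chosen after seeing the data, 848 were called, 154 higher and 694 lower.

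**Figure D4:**
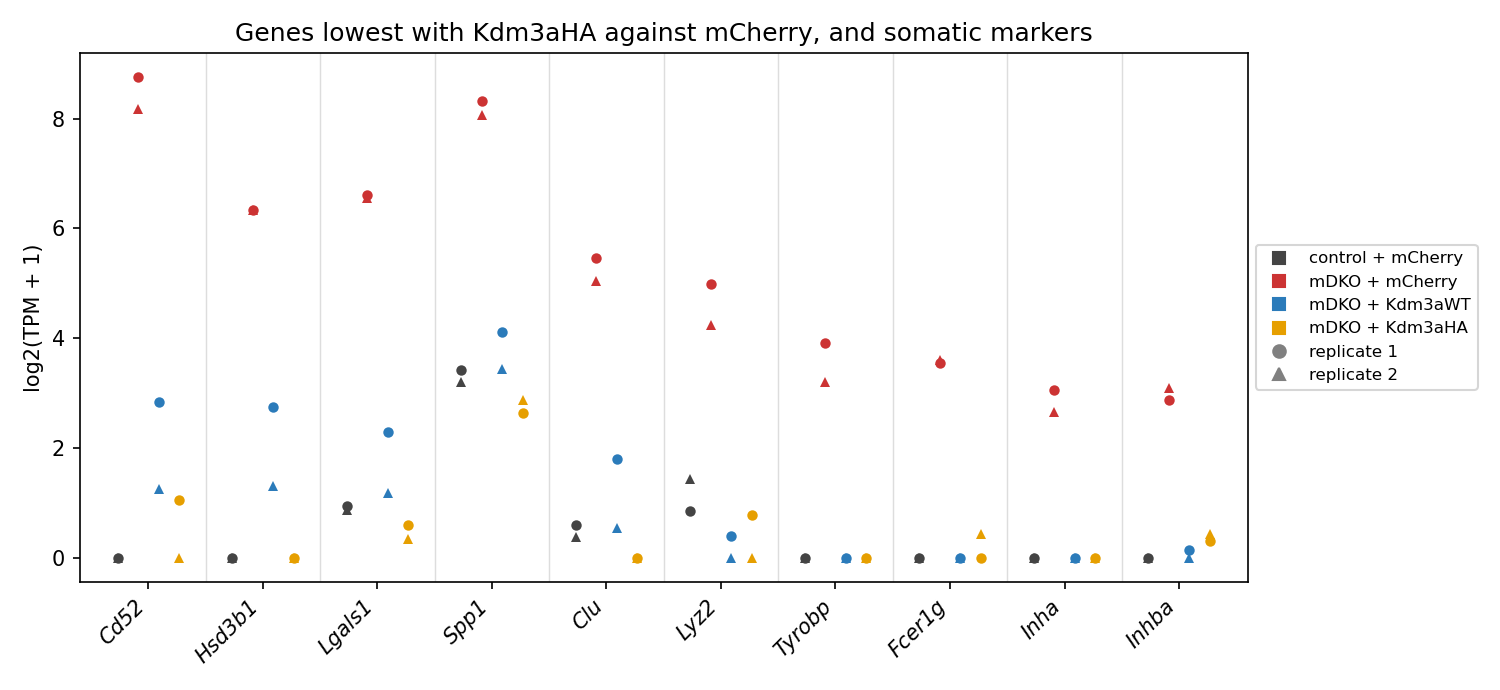
log2(TPM + 1) by library for 10 genes that fell with Kdm3aHA against mCherry. For each gene the 2 mDKO mCherry points lie above the 6 points of the other groups, such as 432 and 288 TPM for Cd52.

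Apart from Kdm3a, the genes that rose with Kdm3aHA did so by less. Extl1, a glycosyltransferase gene, was at 10.3 and 10.03 TPM with Kdm3aHA, 1.77 and 1.91 with mCherry, 2.99 and 7.36 with Kdm3aWT and 7.88 and 8.08 in the control (1.97 ± 0.29 against mCherry, adjusted p = 0.0042). Trim30a, which encodes a TRIM protein of innate immunity, was at 13.3 and 14.3 TPM with Kdm3aHA, 4.34 and 5.06 with mCherry, 5.93 and 7.84 with Kdm3aWT and 14.0 and 14.6 in the control. It rose against mCherry (1.38 ± 0.16, adjusted p = 0.0016) and against Kdm3aWT (0.92 ± 0.16, adjusted p = 0.027). For Extl1 the Kdm3aHA libraries were above the control and for Trim30a they overlapped it, with a difference from the control of 0.31 ± 0.29 for Extl1 (95% interval -0.36 to 0.99) and -0.05 ± 0.16 for Trim30a (95% interval -0.42 to 0.32). Zscan5b, a zinc finger gene, was at 6.15 and 5.19 TPM with Kdm3aHA, between the 1.86 and 1.81 with mCherry and the 8.56 and 8.12 of the control (1.23 ± 0.16 against mCherry, adjusted p = 0.0023). Glis1, a zinc finger transcription factor gene, was at 5.42 and 5.81 TPM with Kdm3aHA, 0.755 and 1.13 with mCherry and 10.4 and 9.40 in the control (1.77 ± 0.30, adjusted p = 0.0072). Got1, an aspartate aminotransferase, was at 26.1 and 20.9 TPM with Kdm3aHA, 8.32 and 9.58 with mCherry and 81.9 and 81.6 in the control (1.29 ± 0.27, adjusted p = 0.018), still below the control.

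Oog1, an oocyte gene, had the largest rise after Kdm3a among the genes named by rule. It was at 39.7 and 36.4 TPM with Kdm3aHA, 5.93 and 0.0949 with mCherry, 0.0268 and 0.0787 with Kdm3aWT and 14.8 and 0.837 in the control (3.82 ± 1.005 against mCherry, adjusted p = 0.046). The replicates of both mCherry groups were far apart, and the call was lost in 3 of the 4 fits that leave out 1 library, with a largest adjusted p of 0.246. Plac1, Prm2, Hist1h3g, Cyp4a10 and Tmc5 also rose, by between 1.28 and 1.57. Of the 12 genes with the largest rise, the calls of Kdm3a, Extl1, Trim30a and Zscan5b held in all 4 of those fits.

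Genes that differed between uninjected mDKO and control embryos were described in the injected libraries. The E2C-lower set holds 663 genes (5.95% of those tested) called lower by at least 1 log2 unit in uninjected mDKO embryos, and 594 of them were tested here. Against mCherry, Kdm3aHA raised 14 (2.36%, Kdm3a among them) and lowered 78 (13.1%), with a median of -0.17, beside 1.54% and 9.29% of all genes. Kdm3aWT raised 40 (6.73%) and lowered 56 (9.43%), with a median of -0.09, beside 0.949% and 10.8%. Against the injected control, Kdm3aHA embryos had 433 of the 594 lower and 9 higher, with a median of -1.16. The counts of 14 and 78 were between 3 and 12 and between 18 and 55 when 1 library was left out, both lowest without mDKO mCherry replicate 1. Members that rose, besides Kdm3a, included Prm2, Got1 and Zscan5b. Phlda2, an imprinted placental gene, was not called, at 19.03 and 13.4 TPM with Kdm3aHA and 4.78 and 7.46 with mCherry (1.28 ± 0.36, adjusted p = 0.054). Members that fell included Cd63, Cstb, Mien1 and Tnfrsf12a. Susd3, far below the control in mDKO, was at 0.480 and 1.31 TPM with Kdm3aHA, 1.62 and 1.10 with mCherry and 28.8 and 23.3 in the control (-0.34 ± 0.29, adjusted p = 0.50).

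Of the 256 tested genes of the E2C-higher set (273 genes, 2.45%, higher by at least 1 log2 unit in uninjected mDKO embryos), Kdm3aHA lowered 28 (10.9%) and raised 4 (1.56%), with a median of -0.11, which is near the shares over all genes. Kdm3aWT lowered 60 (23.4%) and raised 3, with a median of -0.37, beside 10.8% and 0.949% of all genes. In the direct comparison 10 (3.91%) were higher and 5 (1.95%) lower with Kdm3aHA, beside 1.97% and 1.32% of all genes. Nfkbiz, a regulator of NF-kappa-B signalling, was at 7.29 and 10.4 TPM with Kdm3aHA, 13.4 and 13.1 with mCherry and 0.242 and 0.616 in the control (-0.55 ± 0.21, adjusted p = 0.13). The histone genes Hist1h3g and Hist1h2ba rose further with Kdm3aHA, the latter to 47.1 and 44.8 TPM from 24.9 and 19.8 with mCherry, beside 47.4 and 38.8 with Kdm3aWT and 13.5 and 8.56 in the control (1.02 ± 0.21, adjusted p = 0.018). The call of Hist1h2ba held in 0 of the 4 fits without 1 library, with a largest adjusted p of 0.144, and that of Hist1h3g in 1. Of the 1018 genes lower with Kdm3aHA than mCherry, 118 (11.6%) were lower and 53 (5.21%) higher in uninjected mDKO embryos, which are 11.8% and 8.85% of the genes called there in those directions. Across the 10424 genes tested in both comparisons, which share no library, Pearson's r of the log2 fold changes was 0.0456 and Spearman's rho 0.0609. The uninjected comparison itself gave 1600 calls, and 363 and 282 without control replicate 1 and 2 and 2313 and 3214 without mDKO replicate 1 and 2.

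Kdm3aHA against Kdm3aWT gave 361 calls, 3.29% of the genes tested, with 216 higher and 145 lower. After division by size factors the split was 95 higher and 128 lower. There was 1 call without a trend of the spread with the level, and there were 10 in a fit on the 4 libraries alone and 26 without the TPM filter. Leaving out a library gave 31 and 8 calls without Kdm3aHA replicate 1 and 2, and 59 and 1493 without Kdm3aWT replicate 1 and 2. The 145 lower genes fell into 2 large classes by the mCherry-injected mDKO against control comparison, with which this comparison shares no library. In that comparison 41 of them (28.3%) were called lower and 84 (57.9%) higher, where 20.0% and 26.9% of all genes were, and these are 1.87% and 2.85% of the genes called there in those directions. Of the 41, 18 were on the early 2-cell list, 36 were lower and 0 higher in uninjected mDKO embryos, and 6 had a mean TPM of at least 1 in control MII oocytes. Of the 84, 0 were on that list, 2 were lower and 9 higher in uninjected mDKO embryos, and 82 reached that level in oocytes. For all 10960 genes tested, 83.8% did. Across these genes, Pearson's r between the log2 fold changes of the 2 comparisons was -0.23 and Spearman's rho -0.21, a description over genes, which are not independent.

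By definition the 84 genes were lower with Kdm3aHA than with Kdm3aWT, and lower in the control than in mDKO with mCherry. The labels name 2 library kits without tying them to libraries, so kit and group cannot be told apart in these differences. Taf10, which encodes a subunit of the general transcription factor TFIID, at chr7:105742894-105744375, was at 24.1 and 46.4 TPM with Kdm3aHA, 458 and 188 with Kdm3aWT, 319 and 331 with mCherry and 20.1 and 17.6 in the control (-3.09 ± 0.39 against Kdm3aWT, adjusted p = 0.015). In uninjected embryos, in a separate table of TPM, it was at 432 and 444 in the control and 548 and 468 in mDKO. Btg3, an antiproliferative gene, was at 2.09 and 3.34 TPM with Kdm3aHA, 34.0 and 15.7 with Kdm3aWT, 22.4 and 17.3 with mCherry and 5.72 and 6.12 in the control (-2.72 ± 0.32, adjusted p = 0.013), beside 14.5 and 24.1 in uninjected control embryos. Itm2a was at 0.522 and 0.321 TPM with Kdm3aHA, 11.5 and 3.60 with Kdm3aWT, 6.43 and 7.90 with mCherry and 0.282 and 0.221 in the control (-2.42 ± 0.39, adjusted p = 0.022). Without the trend, the 18 genes followed and called between the constructs, some named after their values were seen, all lost their call. The adjusted p was then 0.0517 for Taf10 and Btg3 and 0.0629 for Itm2a. The calls of Taf10, Btg3 and Itm2a were each lost in 2 of the 4 fits without 1 library, with a largest adjusted p of 0.0673, 0.0650 and 0.0956. Scarna13, a small Cajal body RNA, was listed at 0 in both Kdm3aHA libraries and at 10.3 and 6.70 TPM with Kdm3aWT, 6.55 and 12.3 with mCherry and 14.3 and 19.5 in the control. Its call (adjusted p = 0.0093) was lost without Kdm3aHA replicate 2 (adjusted p = 0.0508).

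Among the 216 genes higher with Kdm3aHA than with Kdm3aWT, Tceal8 was at 16.6 and 23.2 TPM with Kdm3aHA, 3.28 and 3.79 with Kdm3aWT, 16.4 and 14.9 with mCherry and 136 and 89.8 in the control (2.19 ± 0.22, adjusted p = 0.0093). The Kdm3aWT libraries, not the Kdm3aHA libraries, stood apart from mDKO mCherry. Dpys, a pyrimidine-degrading enzyme, was at 21.8 and 18.6 TPM with Kdm3aHA, 5.90 and 8.60 with Kdm3aWT, 9.73 and 8.31 with mCherry and 24.3 and 23.9 in the control (1.38 ± 0.18 against Kdm3aWT, adjusted p = 0.015, and 1.08 ± 0.18 against mCherry, adjusted p = 0.0069). The difference of Dpys from the control was -0.25 ± 0.18 (95% interval -0.66 to 0.17). Cstb and Nudt2 were higher by 1.81 and 1.33. Tceal8 lost its call without Kdm3aHA replicate 2 (adjusted p = 0.0508), and Dpys, Cstb and Nudt2 lost theirs in at least 2 of the 4 fits.

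**Figure D5:**
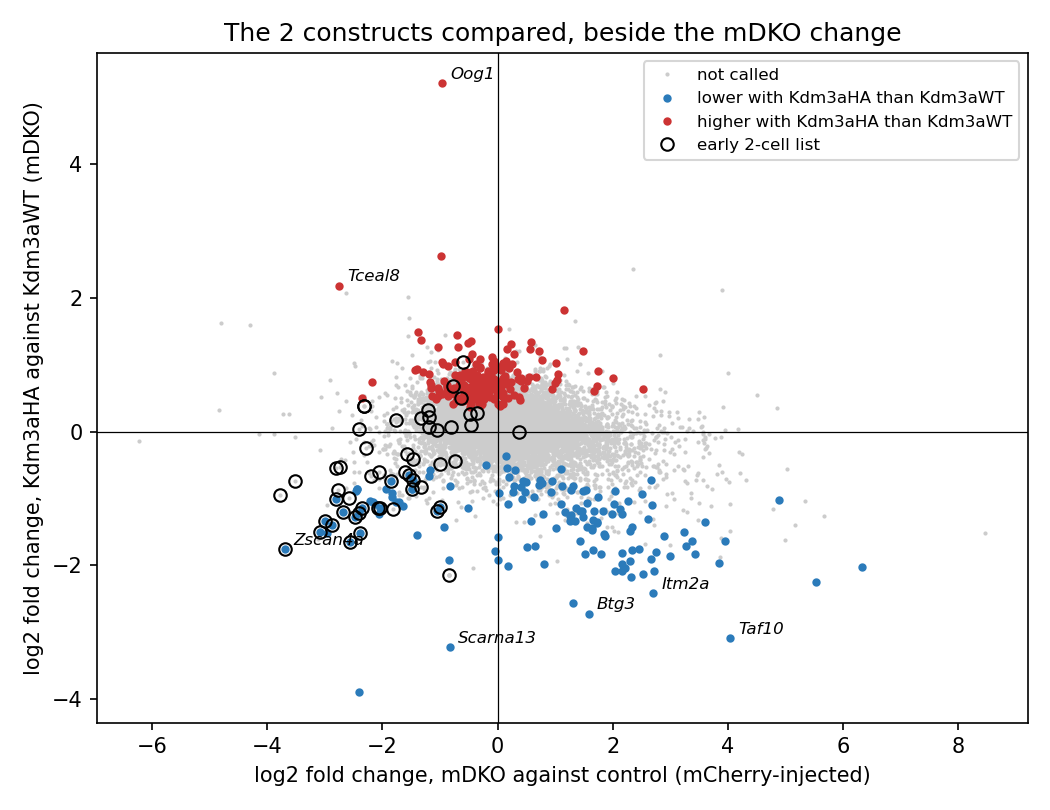
Log2 fold change of Kdm3aHA against Kdm3aWT (vertical) and of mDKO against control among mCherry-injected embryos (horizontal), 1 point per gene, with no library in both. Blue points were lower (145) and red higher (216) with Kdm3aHA, and rings mark the early 2-cell list. The blue points lie in a group at the left with many rings (41 genes called lower in mDKO) and a group at the right without rings (84 called higher).

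Other gene lists moved little or towards lower values with Kdm3aHA against mCherry. Of 76 tested cytosolic ribosomal protein genes, 26 (34.2%) fell and 1 rose, with a median of -0.40, beside 9.29% and 1.54% of all genes. Against the same mCherry libraries, Kdm3aWT lowered 36 of the 76 and raised 0, with a median of -0.53. Rps19 was at 5.49 and 5.16 TPM with Kdm3aHA, 43.6 and 32.5 with mCherry, 6.17 and 5.27 with Kdm3aWT and 10.1 and 12.4 in the control (-2.61 ± 0.18, adjusted p = 0.00010), and Rpl23a was at 11.5 and 10.7 against 67.1 and 55.1 with mCherry (-2.35 ± 0.16, adjusted p = 0.00010). Rps15a was the gene that rose, to 27.5 and 29.0 TPM from 15.8 and 16.4 (0.77 ± 0.12, adjusted p = 0.0047). Between the constructs, 7 ribosomal protein genes (9.21%) were higher and 2 (2.63%) lower with Kdm3aHA, beside 1.97% and 1.32% of all genes, a split that turned with size factors over all genes. Ribosomal protein genes have many processed copies in the genome, among which reads may be split. Of 39 proteasome genes, 7 (17.9%) fell and 2 rose with Kdm3aHA, while 18 fell and 1 rose with Kdm3aWT against mCherry. The 7 included Psme1, Psme2 and Psmb8, parts of the interferon-induced proteasome, with Psme2 at 2.58 and 4.45 TPM against 11.6 and 13.3 (-1.61 ± 0.28, adjusted p = 0.0088), and the 2 that rose were Psmb2 (0.57 ± 0.08, adjusted p = 0.0029) and Psma2 (0.39 ± 0.10, adjusted p = 0.047).

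Of 25 regulators of genome activation, 6 (24.0%) fell and 0 rose, beside 9.29% and 1.54% of all genes. With Kdm3aWT against mCherry 6 also fell and 0 rose. Ctcf, an organiser of chromatin loops, was at 26.3 and 29.3 TPM against 50.2 and 50.9 with mCherry and 33.0 and 36.1 in the control (-0.84 ± 0.11, adjusted p = 0.0027). For Ctcf the mDKO mCherry libraries were the highest of the 8. The remodeller gene Smarca5 and Klf6 also fell, by 0.80 and 0.84. Of 23 genes for H3K9 methylation, only Suv39h2, a methyltransferase, was called, at 27.9 and 39.1 TPM against 63.5 and 61.6 (-0.90 ± 0.19, adjusted p = 0.020). Between the constructs limma called 0 genes of either list, with 7 of each at an unadjusted p under 0.05.

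Of 27 imprinted genes 3 fell, among them Gnas, a G protein subunit gene at chr2:174284320-174346744, at 123 and 127 TPM with Kdm3aHA, 283 and 276 with mCherry, 204 and 168 with Kdm3aWT and 128 and 131 in the control (-1.15 ± 0.10, adjusted p = 0.00040). It was also lower than with Kdm3aWT (-0.56 ± 0.10, adjusted p = 0.029). The other 2 were Cd81 and Sgce. The 3 are 11.1% of the imprinted genes tested, beside 9.29% of all genes, and Kdm3aWT also lowered 3 of the 27 against mCherry. Of 30 germline and meiotic genes, 4 (13.3%) fell and 2 (6.67%) rose, beside 9.29% and 1.54% of all genes. With Kdm3aWT against mCherry 1 fell and 0 rose. Sycp3, of the meiotic chromosome axis, was at 145 and 134 TPM with Kdm3aHA, 85.3 and 87.6 with mCherry, 73.2 and 93.6 with Kdm3aWT and 386 and 404 in the control (0.68 ± 0.12 against mCherry, adjusted p = 0.0090). Tex15, which acts in piRNA-directed silencing, went the other way, at 2.44 and 2.94 TPM with Kdm3aHA, 8.29 and 7.24 with mCherry, 7.31 and 5.96 with Kdm3aWT and 27.2 and 30.5 in the control (-1.25 ± 0.16, adjusted p = 0.0023). Tex19.1 fell further below the control, to 15.2 and 16.3 TPM from 20.9 and 25.0 with mCherry, beside 109 and 102 in the control (-0.51 ± 0.13, adjusted p = 0.038). Wfdc15a and Tdrd12 fell and Tex19.2 rose. Tex19.2 passed the TPM filter only with both Kdm3aHA libraries counted, where it was high, so the filter favoured its direction. Its call was lost without either mDKO mCherry replicate, with log2 fold changes of 0.75 and 0.81. The call of Tex15 held in all 4 fits without 1 library, and that of Sycp3 was lost in 3 of them, with a largest adjusted p of 0.100.

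Of 60 oocyte and maternal-effect genes, 2 rose (Oog1 and Dppa3) and 2 fell (Lsm14b and Padi6). Of 42 ribosome biogenesis genes 3 fell (Imp3, Rrs1 and Gnl2), and of 28 genes of maternal mRNA clearance 1 fell (Cnot11, of the deadenylase complex). Of 22 p53 targets 4 fell (Polk, Bax, Cdkn1a and Gadd45a), of 16 interferon and RNA-sensing genes 4 fell (Ifitm2, Isg20, Cxcl10 and Ddx58), of 27 heat shock and unfolded protein response genes 4 fell (Xbp1, Asns, Pdia4 and Pdia6) and of 42 cell cycle genes 2 fell (Cdk4 and E2f1), with 0 higher in each of these lists. Bax, which promotes cell death, was at 14.4 and 21.9 TPM with Kdm3aHA, 45.3 and 37.9 with mCherry and 19.5 and 15.2 in the control (-1.18 ± 0.21, adjusted p = 0.0093). Of 12 pluripotency and early lineage factors, Dppa5a rose (0.67 ± 0.11, adjusted p = 0.0051) and Klf2 fell. The list of mitochondrially encoded transcripts had 0 genes in the table. The share of genes lower was above the 9.29% of all genes for ribosomal proteins (34.2%), interferon and RNA sensing (25.0%) and regulators (24.0%). The same held for p53 targets (18.2%), proteasome (17.9%), heat shock (14.8%) and germline genes (13.3%) and for the 3 lists of other-cell markers. It was near that share for early 2-cell (11.3%) and imprinted genes (11.1%). For the lists of Obox, H3K9, oocyte, ribosome biogenesis, mRNA clearance, pluripotency and cell cycle genes it was below. Against the same mCherry libraries, Kdm3aWT lowered 47.4% of the ribosomal protein, 25.0% of the interferon, 24.0% of the regulator and 46.2% of the proteasome genes. It lowered 25.9% of the heat shock, 4.55% of the p53 and 3.33% of the germline genes, beside 10.8% of all genes. Among those that fell, 3 proteasome, 2 imprinted, 1 interferon, 1 heat shock and 1 pluripotency gene passed the TPM filter only with the mDKO mCherry libraries counted. Without the genes that passed in this way, 785 of all genes, 1 imprinted gene and 0 blood cell or sperm markers were lower. The place of these 3 lists above the share of all genes therefore rests on the filter. The mDKO mCherry libraries carry the other-cell markers given above, whose part in these counts was not tested. Among the genes of these lists given with values, the calls of Rps19, Rpl23a, Psmb2, Ctcf, Gnas and Tex15 held in all 4 fits without 1 library, and those of the others were lost in at least 1. The calls of Cdkn1a, Isg20, Ddx58, E2f1, Rrs1 and Padi6 held in 0 of these fits. Those of Polk, Gadd45a, Cxcl10, Pdia4, Pdia6, Cdk4, Imp3, Gnl2, Cnot11, Lsm14b, Dppa3, Wfdc15a and Tdrd12 held in 1. Those of Ifitm2, Cd81 and Psme1 held in all 4. Klf2 was tested in 2 of them and its call held in 0.

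The same constructs were injected into wild-type embryos that were collected at the 4-cell stage and have their own Kdm3a and Kdm3b. Kdm3a was at 70.5 and 161 TPM with Kdm3aHA, 108 and 53.4 with Kdm3aWT and 21.8 and 6.24 with mCherry there, which does not overlap but was not called by limma (3.07 ± 0.62, adjusted p = 0.77). Of 9669 genes tested for Kdm3aHA against mCherry, 0 (0%) were called by limma, with 264 at an unadjusted p under 0.05. The blood cell markers summed to 283 TPM in Kdm3aHA replicate 1 and to between 26.7 and 62.0 TPM in the other 5 injected 4-cell libraries. Leaving out mCherry replicate 1 gave 21 calls, and leaving out Kdm3aHA replicate 2 gave 2. Of 46 tested early 2-cell genes 0 were called by limma, with 2 at an unadjusted p under 0.05. Tcstv3 was at 16.8 and 59.8 TPM with Kdm3aHA and 6.84 and 0.509 with mCherry (3.26 as a log2 fold change, adjusted p = 0.84). Zscan4c was at 0.319 and 2.93 TPM with Kdm3aHA, 16.7 and 5.02 with Kdm3aWT, and 0 and 0.550 with mCherry, so its values in 4-cell embryos spread widely within a group. The replicates of these 4-cell groups correlated across genes at 0.945 to 0.975, beside 0.985 to 0.991 for the injected early 2-cell groups, where 9546 to 10284 genes reached 1 TPM.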

How the data were processed

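Per the labels' protocols, 12 to 20 embryos were pooled per library, and the early 2-cell and 4-cell libraries were made with a SMART-Seq kit, v4 or mRNA LP. The sources used here do not tie kits to libraries, so kit and group cannot be told apart. The authors deposited TPM per gene and library. The submitters' processing notes list the build mm10 and, with no role for any, RSEM 1.3.1, STAR 2.7.10b, SAMtools 1.9 and Bowtie2 2.3.4.1. TPM keeps no depth, so no counting interval is given.

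limma 3.58.1 (R 4.3.3) was fitted to log2(TPM + 1), with moderation by a mean-dependent trend, Benjamini-Hochberg adjustment of two-sided p-values over all genes tested. A gene was tested where 2 or more libraries of the fit reached a TPM of 1. The 8 injected early 2-cell libraries shared 1 fit, the 6 injected 4-cell libraries another and the 4 uninjected early 2-cell libraries their own. With 2 libraries a group the smallest exact permutation p is 0.333. The fit was tested on simulated data. Columns of unmatched samples: 0.

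The members and the 22 gene lists were chosen with earlier results of these data known. The named genes were the 12 largest and 12 smallest log2 fold changes for Kdm3aHA against mCherry among called genes with library values that do not overlap and a mean TPM of at least 5 in the higher group, without predicted genes or clones. To these were added up to 4 called members per list and direction, 13 genes whatever their values, the 5 largest and 5 smallest under the same conditions for Kdm3aHA against Kdm3aWT and for 4-cell embryos, and 5 per direction in the sets defined in uninjected embryos. Genes outside that rule were chosen after their values were seen. Of the table's symbols, 23193 matched RefSeq (GRCm38.p6), the source of coordinates and promoters.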

Additional observations from a re-analysis of the deposited data

How the results depend on the processing

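Alternatives were other pseudocounts (0.1 and 5), no filter, a filter of TPM 5, size-factor scaling, a replicate block, no trend, a fit on the 4 libraries compared, leaving out each library, and, chosen after seeing the data, a filter on the control libraries. No called gene named in the text by rule changed direction under any of them, but splits and medians near 0 did. The early 2-cell median for Kdm3aHA against mCherry, -0.05, became 0.02 with size factors and 0.03 without mDKO mCherry replicate 2. With size factors the calls turned from mostly higher to mostly lower for Kdm3aHA against Kdm3aWT (216 and 145, then 95 and 128) and from 1862 higher and 2202 lower to 2126 and 1895 for Kdm3aHA mDKO against mCherry control. TPM without counts, 2 libraries a group and pools of unknown origin limit precision.

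For Kdm3aHA against mCherry, genes higher numbered 169 and became 348 with size factors and 353 in the fit on 4 libraries. Early 2-cell genes lower numbered 6 and became 3 without the filter, with size factors and without the trend, and those higher, 3, became 5 in the fit on 4 libraries. E2C-lower genes higher and lower, 14 and 78, became 8 and 51 without the filter. Without 1 library the ranges were 216 to 882 calls, 21 to 73 higher and 195 to 809 lower, 1 to 3 early 2-cell genes higher and 1 to 6 lower, and 3 to 12 E2C-lower genes higher and 18 to 55 lower.

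For Kdm3aHA against Kdm3aWT, the 361 calls became 26 without the filter (14 higher, 12 lower), 604 at TPM 5 (395 higher), 223 with size factors (95 higher), 1 without the trend (0 higher, 1 lower) and 10 in the fit on 4 libraries (5 higher, 5 lower). Early 2-cell genes lower, 18, became 3 without the filter, 0 without the trend and 3 in the fit on 4 libraries, and the 1 higher became 0, 2, 0, 0 and 0 under these 5 settings in the order first given. Without 1 library the ranges were 8 to 1493 calls, 2 to 1055 higher, 6 to 438 lower, and 0 to 3 early 2-cell genes higher and 3 to 18 lower.

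For Kdm3aWT against mCherry, early 2-cell genes higher, 23, became 15 without the filter, and without 1 library the ranges were 91 to 1551 calls, 3 to 16 early 2-cell genes higher and 1 to 5 lower. Without 1 library, mDKO against control with mCherry gave 3117 to 4026 calls, Kdm3aHA mDKO against mCherry control 2526 to 3187, the uninjected comparison 282 to 3214 and the 4-cell comparison 0 to 21. The uninjected comparison gave 409 calls without the filter. The 4-cell comparison gave 8 in the fit on 4 libraries. The cause of these changes was not tested.

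Nothing in the labels pairs equal replicate numbers, and the correlation of replicate differences lay between -0.097 and 0.048 for the injected early 2-cell groups, was -0.019 for the 2 uninjected groups and lay between -0.021 and 0.177 for the 4-cell groups. With the replicate number as a block, Kdm3aHA against mCherry gave 1099 calls, Kdm3aHA against Kdm3aWT 318, the uninjected comparison 2560 and the 4-cell comparison 2.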
